A study of Homo sapiens with 12 samples.

Results

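The Wnt pathway genes are a list of 40 genes of Wnt signalling, from the secreted ligands to the nuclear TCF/LEF factors, and they were measured in SW13 cells, a line from a human adrenal cortical carcinoma. Each gene was represented by the probe set of that gene alone with the highest mean log2 signal over 12 arrays. Of the 40 genes 36 had such a probe set, out of 19775 genes on the array, and 30 of these, out of 13784 genes, were bright enough to be tested. WNT3 and FZD8 had only probe sets that the annotation shares with another gene, and PORCN and TCF7 were not analysed here.

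The cells carried either BRG1 (SW13+BRG1) or the empty vector pREP7 (SW13+vector). BRG1 is an ATPase of SWI/SNF chromatin remodelling complexes, which can hold the ATPase BRM in its place. The BRG1 protein is not expressed in the vector cells. Cells of each kind were irradiated with UV at 10 J/m2 or mock-treated, and RNA was collected 6 h later for Affymetrix U133 Plus 2.0 arrays. This gave 4 groups of 3 arrays: UV-treated SW13+BRG1, mock-treated SW13+BRG1, UV-treated SW13+vector and mock-treated SW13+vector. A single stable line stands for each genotype and the 3 arrays of a group are independent biological replicates of it, so an effect of BRG1 and other differences between the lines cannot be told apart.

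Wnt ligands bind Frizzled receptors together with the co-receptors LRP5 and LRP6. This acts through Dishevelled to stop a destruction complex of AXIN, APC and the kinase GSK3B from marking beta-catenin (CTNNB1) for degradation, so that beta-catenin can join TCF/LEF factors on DNA. In the adrenal cortex the pathway is active in the outermost zone, and adrenal cortical carcinomas are known to carry mutations of CTNNB1 or losses of ZNRF3, which removes Frizzled receptors from the cell surface.

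The signals are MAS intensities scaled by the authors to a trimmed mean of 125 on every array. The array medians lay between 21.1 and 24.3 on UV-treated and between 22.4 and 25.3 on mock-treated SW13+BRG1 arrays, and between 21.3 and 25.3 on UV-treated and between 21.7 and 23.8 on mock-treated SW13+vector arrays. Log2 signals of 2 arrays of the same group correlated with r of 0.894 to 0.949 (12 pairs), and those of 2 arrays of different groups with r of 0.763 to 0.915 (54 pairs). Of 8 measured markers of the adrenal cortex 6 did not pass the filter on dim signals, and the 8 summed to between 101.6 and 123 on UV-treated and between 82.0 and 139 on mock-treated SW13+BRG1 arrays, against 84.5 to 169 on UV-treated and 77.5 to 101 on mock-treated SW13+vector arrays. The steroidogenic genes STAR and HSD3B2 were under the array median on all 12 arrays. The summed signal of 7 epithelial markers, mostly KRT18, was 3336 to 6183 on SW13+BRG1 arrays and 306 to 388 on SW13+vector arrays, and that of 7 mesenchymal markers was 8515 to 14133 on SW13+BRG1 arrays, mostly VIM, and 1554 to 2444 on SW13+vector arrays, mostly COL3A1. COL3A1 averaged 1086 after UV and 1327 after mock treatment with BRG1, against 1273 and 1467 with the vector. Of the other epithelial markers KRT8 averaged 125 in both treatments with BRG1 against 50.2 after UV and 51.2 after mock treatment with the vector. KRT7 averaged 65.3 and 60.3 against 73.8 and 56.1, in the same order. CDH1, KRT19 and CLDN4 did not pass the filter. Of 4 measured blood cell markers, which summed to 45.3 to 95.8 on SW13+BRG1 and 125 to 213 on SW13+vector arrays, PTPRC was the one whose mean was much higher in the vector line. The part of these marker differences in the results between the lines was not tested. The 9 probe sets of SMARCA4, the gene of BRG1, do not check the labels, because it is not known here which of them match the introduced copy. The SMARCA4 probe set with the highest mean signal was lower in SW13+BRG1 cells in both treatments (log2 fold change -1.22 ± 0.42, limma adjusted p = 0.0399, after UV and -1.28 ± 0.42, adjusted p = 0.0355, in mock-treated cells). With p-values adjusted over all tested probe sets, 1 of its 7 tested probe sets was higher and 0 were lower in SW13+BRG1 cells after UV, and 0 were higher and 1 was lower in mock-treated cells.

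Between the lines, the secreted inhibitors of the pathway differed most. DKK1 was dim in SW13+BRG1 cells and bright in SW13+vector cells, and DKK3 and SFRP1 were bright in SW13+BRG1 cells and dim in SW13+vector cells. Among the receptors FZD2 and FZD6 were higher and FZD1 and FZD5 lower in SW13+BRG1 cells. The corepressor TLE1 was higher, and AXIN2 and ZNRF3, which are known targets and feedback inhibitors of the pathway in other cells, were lower. A gene was called where the limma fit gave a p under 0.05 after Benjamini-Hochberg adjustment over the 13784 genes together with a fold change over 2. Fold changes below are log2 fold changes ± standard error, SW13+BRG1 over SW13+vector or UV over mock. Groups without overlap of their signals were common. Between the lines they made up 45.4% of all tested genes after UV and 41.4% in mock-treated cells. For UV over mock the shares were 37.2% with BRG1 and 32.3% with the vector. A lack of overlap alone thus says little about a gene. After UV 5 members were called higher and 6 lower in SW13+BRG1 cells, 36.7% of the 30, against 16.7% of all tested genes (9.85% higher and 6.86% lower). In mock-treated cells 6 were called higher and 5 lower, again 36.7%, against 14.6% of all tested genes (9.38% higher and 5.27% lower). The median log2 fold change of the 30 members was 0.01 after UV and 0.00 in mock-treated cells, and that of all genes was -0.02 and 0.00. Called in both treatments were 5 of the higher and 5 of the lower members. These counts do not tell apart fewer cells with a transcript from less of it per cell.

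DKK1 (chromosome 10, 52314281 to 52317657 in GRCh38.p14), which binds LRP5 and LRP6 and keeps Wnt from using them, had signals of 26.5, 22.1 and 32.9 on the UV-treated SW13+BRG1 arrays against 1453, 1342 and 937 on the UV-treated SW13+vector arrays. In mock-treated cells its signals were 15.8, 22.4 and 51.7 with BRG1 against 3674, 3706 and 3077 with the vector. The groups of the lines lay far apart in both treatments, and the SW13+BRG1 signals were around the array median. The log2 fold change was -5.51 ± 0.34 after UV (adjusted p = 7.74e-08) and -7.04 ± 0.34 in mock-treated cells (adjusted p = 7.88e-09). Where a signal of the dimmer group under the median of its array is raised to that median, DKK1 was at least 44.1-fold lower after UV and at least 109.9-fold lower in mock-treated cells.

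The sequence of the 250 bases before the transcription start was taken from RefSeq (GRCh38.p14), which gave 35 starts for 27 of the 40 members. The starts of DKK1 and TLE1 are shown because these 2 genes had the largest lower and higher fold changes between the lines among the members with a sequence. Capitals mark the letters CTTTGA, a form of the core of the TCF/LEF binding motif, searched on both strands (TCAAAG on the printed strand where it lies on the other). Other forms of the motif were not searched, so the counts of matches below are for these letters alone.
DKK1, chr10:52314031-52314280, plus strand: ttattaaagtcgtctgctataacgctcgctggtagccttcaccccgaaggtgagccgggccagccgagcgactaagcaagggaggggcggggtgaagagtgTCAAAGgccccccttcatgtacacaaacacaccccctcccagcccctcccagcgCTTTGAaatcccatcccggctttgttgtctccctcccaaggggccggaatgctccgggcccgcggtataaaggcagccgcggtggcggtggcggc
TLE1, chr9:81689548-81689797, minus strand: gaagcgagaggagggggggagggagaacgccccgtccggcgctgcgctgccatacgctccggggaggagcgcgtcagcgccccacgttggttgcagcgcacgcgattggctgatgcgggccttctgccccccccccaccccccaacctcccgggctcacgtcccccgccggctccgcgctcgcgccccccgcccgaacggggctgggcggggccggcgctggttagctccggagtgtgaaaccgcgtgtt
The DKK1 window held 2 matches, 1 on each strand, and the TLE1 window held 0. Of the 35 member windows 2 had a match, that of DKK1 and that of 1 start of PORCN, and 11.2% of 35116 promoter windows of the same length had one. The DKK1 window also held 1 match of TATAAA, likewise searched on both strands, which 10.7% of the windows had. A match of letters does not show that a factor binds there.

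DKK3 (chromosome 11, 11963036 to 12009745), a secreted protein of the Dickkopf family that is known not to bind LRP6 in the way DKK1 does, went the other way. Its signals were 1301, 1321 and 1394 on UV-treated SW13+BRG1 arrays against 16.4, 16.4 and 17.2 on UV-treated SW13+vector arrays, and 966, 980.0 and 989 against 21.8, 4.53 and 7.39 on the mock-treated arrays. All 6 SW13+vector arrays were under their array median. The log2 fold change was 6.33 ± 0.40 after UV (adjusted p = 9.94e-08) and 6.76 ± 0.40 in mock-treated cells (adjusted p = 5.01e-08), and the lower bounds against the array median were 57.5-fold and 42.6-fold. After UV all 4 tested probe sets were called higher (here and below, single probe sets with p-values adjusted over all tested probe sets), and in mock-treated cells 3 of them. The rest of its 6 probe sets were too dim to be tested. A probe set could pass that filter through the SW13+BRG1 arrays alone, so the counts of called probe sets are not separate support.

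SFRP1 (chromosome 8, 41261962 to 41309473), which binds Wnt ligands outside the cell, had signals of 865, 934 and 1449.5 with BRG1 against 20.4, 15.1 and 30.2 with the vector after UV. In mock-treated cells the signals were 763, 671 and 772 with BRG1 and 1.11, 16.9 and 33.1 with the vector. The groups did not overlap in either treatment, and the mock-treated SW13+vector arrays were spread widely at dim signals. The log2 fold change was 5.65 ± 0.87 (adjusted p = 0.000239) and 6.43 ± 0.87 (adjusted p = 9.89e-05), or at least 40.3-fold and at least 27.8-fold higher. All 3 tested probe sets were called higher in both treatments. The remaining probe set of its 4 was too dim to be tested, and here too the filter could be passed through the SW13+BRG1 arrays alone. WIF1, the other secreted inhibitor on the list, which also binds Wnt ligands, was too dim to be tested, with signals of 0.163 to 21.2 over the 12 arrays.

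**Figure D1:**
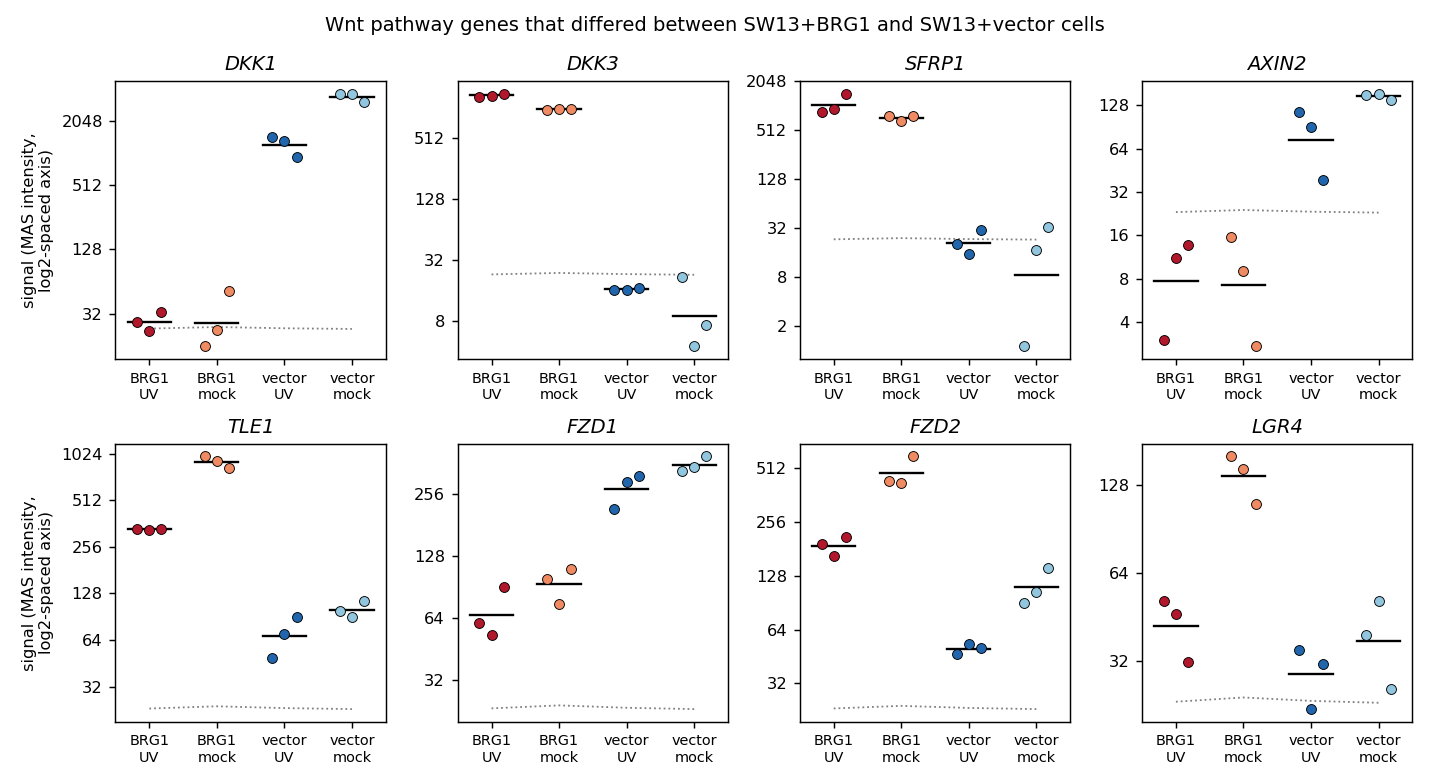
Signals of 8 Wnt pathway genes on each of the 12 arrays (vertical axis, MAS intensity on a logarithmic axis), by line and treatment (horizontal axis, 3 points per group). Bars are the means of the log2 signals and the dotted line is the mean of the array medians. DKK1, AXIN2 and FZD1 lay lower and DKK3, SFRP1, TLE1 and FZD2 lay higher in SW13+BRG1 cells in both treatments, and LGR4 was highest in mock-treated SW13+BRG1 cells.

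Of the 7 measured Frizzled receptors, which bind the Wnt ligand at the cell surface, 2 were higher, 2 lower and 3 not called in SW13+BRG1 cells, in each treatment. FZD2 (chromosome 17, 44557484 to 44561262) had signals of 192, 165 and 212 with BRG1 against 46.7, 53.1 and 50.3 with the vector after UV, and of 433, 426 and 598 against 90.4, 104 and 142 in mock-treated cells. The lines did not overlap in either treatment (log2 fold change 1.92 ± 0.21, adjusted p = 1.44e-05, and 2.12 ± 0.21, adjusted p = 6.13e-06). FZD6 (chromosome 8, 103298494 to 103332866), which is known mostly for Wnt signalling without beta-catenin, had signals of 523, 502 and 466 with BRG1 against 236, 258 and 161 with the vector after UV, and of 469, 505 and 415 against 269.7, 274 and 156 in mock-treated cells. The arrays of the lines were apart here as well, but the fold change was just over the limit in mock-treated cells (1.21 ± 0.23, adjusted p = 0.00102, after UV and 1.03 ± 0.23, adjusted p = 0.00363, in mock-treated cells). The mock call of FZD6 was lost without the third mock-treated SW13+vector array or without the second mock-treated SW13+BRG1 array, and in 5 of 16 other settings (a common median, 16 added to the signal, the t-test of the methods with unadjusted and with adjusted p, and without the arrays numbered 3).

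FZD1 (chromosome 7, 91264433 to 91271326) had signals of 60.6, 53.0 and 90.6 with BRG1 against 217, 293 and 315 with the vector after UV, and of 99.1, 74.5 and 111 against 333, 348 and 391 in mock-treated cells. It was lower on every SW13+BRG1 array than on every SW13+vector array (-2.04 ± 0.24, adjusted p = 2.29e-05, and -1.93 ± 0.24, adjusted p = 4.1e-05). FZD5 (chromosome 2, 207762598 to 207769906) had signals of 26.8, 38.4 and 29.2 with BRG1 against 72.4, 91.3 and 82.0 with the vector after UV, and of 77.2, 75 and 68.7 against 158, 167 and 162 in mock-treated cells. The groups did not overlap within a treatment (-1.39 ± 0.22, adjusted p = 0.000274, and -1.14 ± 0.22, adjusted p = 0.00145). FZD7 also had signals apart between the lines and passed the adjusted p but not the fold of 2 (-0.83 ± 0.18 after UV and -0.75 ± 0.18 in mock-treated cells). Outside the Frizzled receptors LRP6, GSK3B and TCF7L2 were placed likewise in both treatments. After UV and in mock-treated cells LRP6 was lower (-0.76 ± 0.25 and -0.80 ± 0.25). GSK3B (0.50 ± 0.15 and 0.52 ± 0.15) and TCF7L2 (0.55 ± 0.19 and 0.62 ± 0.19) were higher. The signals of FZD3 and FZD4 overlapped between the lines.

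LGR4 (chromosome 11, 27365961 to 27472790), a receptor for R-spondins, which raise the number of Wnt receptors on the cell, had signals of 51.2, 46.1 and 31.6 with BRG1 against 34.9, 21.9 and 31.2 with the vector after UV, and of 159.8, 145 and 109.9 against 39.3, 51.3 and 25.7 in mock-treated cells. Only the mock-treated groups lay apart, and only there was it called higher (log2 fold change 0.55 ± 0.34, adjusted p = 0.247, after UV and 1.87 ± 0.34, adjusted p = 0.000907, in mock-treated cells). ZNRF3 (chromosome 22, 28883572 to 29057488), the ubiquitin ligase that takes Frizzled off the surface unless R-spondin and LGR stop it, had signals of 3.98, 5.90 and 5.17 with BRG1 against 32.8, 26.8 and 17.1 with the vector after UV, and of 46.6, 29.0 and 48.4 against 130.4, 92.6 and 93.6 in mock-treated cells. It was lower in SW13+BRG1 cells without overlap (-2.32 ± 0.40, adjusted p = 0.000628, and -1.37 ± 0.40, adjusted p = 0.0214). After UV its SW13+BRG1 signals were all under the array median, so the bound there was no more than 1.07-fold. The UV call was lost with 16 added to the signal and with signals raised to the 40th percentile, and the mock call was lost without any 1 of 3 arrays (the first or second mock-treated SW13+vector array or the second mock-treated SW13+BRG1 array).

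AXIN2 (chromosome 17, 65528563 to 65561648), a scaffold of the destruction complex that beta-catenin is known to switch on, had signals of 2.99, 11.2 and 13.7 with BRG1 against 116, 90.3 and 38.6 with the vector after UV, and of 15.5, 9.08 and 2.70 against 150.3, 154 and 140.5 in mock-treated cells. Every SW13+BRG1 array was under its median and every SW13+vector array above it. The probe set thus passed the filter on dim signals through the SW13+vector arrays alone, where it was high. The log2 fold change was -3.26 ± 0.70 after UV (adjusted p = 0.00281) and -4.36 ± 0.70 in mock-treated cells (adjusted p = 0.000384), with bounds of 3.20-fold and 6.20-fold. The other 3 of its 4 probe sets were too dim to be tested.

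TLE1 (chromosome 9, 81583683 to 81689547), a Groucho corepressor that TCF/LEF factors recruit when beta-catenin is absent, had signals of 333, 328 and 335 with BRG1 against 49.2, 69.9 and 89.8 with the vector after UV, and of 981, 914 and 827 against 98.8, 90.6 and 114 in mock-treated cells. The lines were apart in both treatments (2.30 ± 0.20, adjusted p = 1.95e-06, and 3.17 ± 0.20, adjusted p = 9.05e-08), and 3 of 5 probe sets were called higher after UV and 4 of 5 in mock-treated cells. TCF7L1 (chromosome 2, 85133392 to 85310387), the TCF factor known above all as a repressor, had signals of 7.92, 3.91 and 15.9 with BRG1 against 39.9, 31.5 and 40.5 with the vector after UV, and of 12.6, 9.50 and 19.5 against 26.1, 24.5 and 62.8 in mock-treated cells. The lines did not overlap, but it was called lower after UV alone (-2.23 ± 0.60, adjusted p = 0.0116, against -1.37 ± 0.60, adjusted p = 0.111, in mock-treated cells). All 6 SW13+BRG1 arrays were under the array median, so the bounds of TCF7L1 were 1.60-fold after UV and 1.43-fold in mock-treated cells, both under the fold of 2, and the call after UV was lost in the methods' t-test with unadjusted and with adjusted p. The TCF7L1 probe set, too, passed the filter through the SW13+vector arrays alone.

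**Figure D2:**
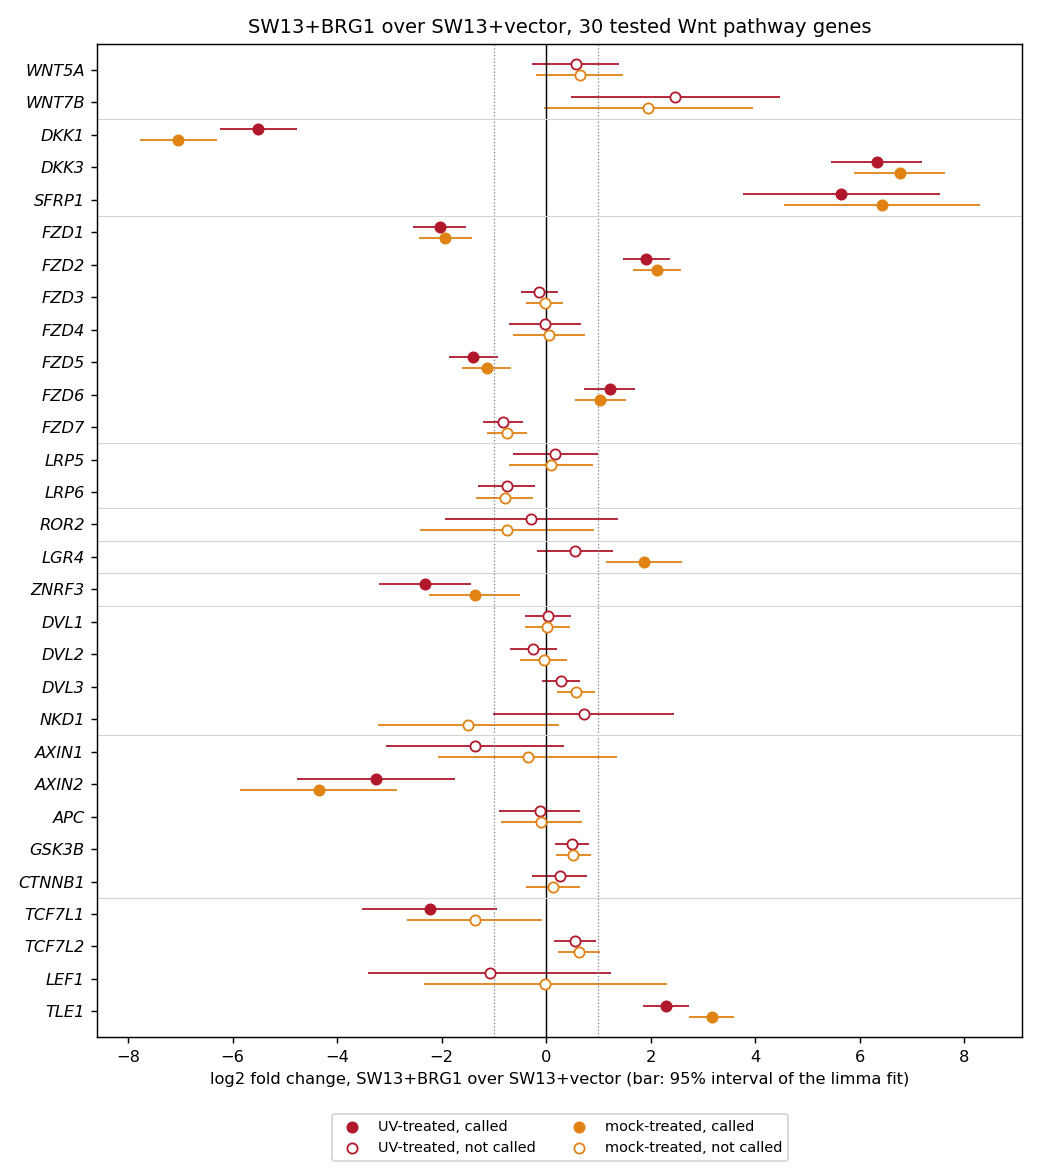
Log2 fold change of SW13+BRG1 over SW13+vector (horizontal axis) for the 30 tested Wnt pathway genes (vertical axis, in the order of their roles), after UV and after mock treatment. Bars are 95% intervals of the limma fit, filled points were called, and the dotted lines mark a fold of 2. DKK3 and SFRP1 lie farthest to the right and DKK1 and AXIN2 farthest to the left in both treatments.

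Among the 12 members that were not called in any comparison were genes at the centre of the pathway. CTNNB1, beta-catenin itself, had signals of 1134, 1116 and 708 on UV-treated and 837, 1031 and 660.1 on mock-treated SW13+BRG1 arrays, and of 978, 922 and 583 on UV-treated and 898, 773 and 630.1 on mock-treated SW13+vector arrays. The 4 groups overlapped. The 95% interval of the log2 fold change between the lines was -0.26 to 0.78 after UV and -0.39 to 0.65 in mock-treated cells, and that of UV over mock was -0.30 to 0.74 in SW13+BRG1 cells and -0.43 to 0.61 in SW13+vector cells, so a change of 2-fold or more lay outside all 4 intervals of this probe set. None of the 3 tested probe sets of CTNNB1 was called. The dimmer ones were less precise and differed in direction between the mock-treated lines (0.61 ± 0.51 and -0.58 ± 0.30). The Dishevelled proteins, which pass the signal from Frizzled to the destruction complex, were likewise not called. DVL3 had signals of 506, 534 and 563 on UV-treated and 466, 486 and 521 on mock-treated SW13+BRG1 arrays, against 390.5, 436 and 490.5 on UV-treated and 308, 267 and 433 on mock-treated SW13+vector arrays. It lay higher on the SW13+BRG1 arrays in each treatment by less than the fold of 2 (0.29 ± 0.17 after UV and 0.58 ± 0.17 in mock-treated cells, adjusted p = 0.22 and 0.0195). DVL2 had signals of 256, 266 and 350.4 on UV-treated and 276, 269 and 358 on mock-treated SW13+BRG1 arrays, against 292, 331 and 409 on UV-treated and 285, 258 and 400.1 on mock-treated SW13+vector arrays, and all 4 groups overlapped. DVL1 had log2 fold changes between 0.03 and 0.24 in the 4 comparisons.

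The ligands were dim. WNT5A, which is known for signalling without beta-catenin, did not exceed 67.4 on any array, and WNT7B did not exceed 34.9. Neither passed the test in a comparison, and the 95% intervals of WNT7B between the lines ran over 0.47 to 4.47 after UV and -0.04 to 3.96 in mock-treated cells. The UV-treated groups of WNT7B did not overlap, but the p did not pass after adjustment (unadjusted p = 0.0192, adjusted p = 0.0578). WNT7B would be called higher in SW13+BRG1 cells without the third mock-treated SW13+vector array, in both treatments, and after UV also without the first UV-treated SW13+vector array. WNT5B, WNT11, the WNT5A receptor ROR1, the R-spondin receptor LGR5 and the ubiquitin ligase RNF43 were, with WIF1, the 6 members too dim to be tested, with no signal over 33.1. FZD4, FZD7, LRP5, ROR2, NKD1 (an inhibitor of Dishevelled) and LEF1 completed the members that were not called.

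UV lowered a set of these genes and raised none to a call. In SW13+BRG1 cells 0 members were called higher and 11 lower after UV, 36.7% of the 30, against 6.57% lower and 0.609% higher among all tested genes (7.17% in either direction). In SW13+vector cells 0 were called higher and 7 lower, 23.3% of the 30, against 4.16% lower and 0.66% higher among all genes (4.82% in either direction). The 6 called lower in both lines were LRP6, TCF7L2, GSK3B, APC, ZNRF3 and FZD2. A log2 fold change under 0 was seen for 20 of 30 members with BRG1 and for 21 with the vector, against 47.7% and 48% of all genes. The median log2 fold change of the members was -0.42 with BRG1 and -0.54 with the vector, and that of all genes was 0.03 in both lines. On the arrays themselves the median log2 signal of the 30 members was 5.94 to 6.28 on UV-treated and 6.97 to 7.06 on mock-treated SW13+BRG1 arrays, and 5.69 to 6.10 on UV-treated and 6.99 to 7.28 on mock-treated SW13+vector arrays, so the treatments did not overlap in either line.

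LRP6 (chromosome 12, 12116025 to 12267044), the co-receptor that Wnt brings together with Frizzled, had signals of 35.3, 33.7 and 22.7 on UV-treated against 224, 202 and 148 on mock-treated SW13+BRG1 arrays, and of 41.2, 61.5 and 51.6 against 379, 295 and 311 on SW13+vector arrays. The treatments lay far apart in both lines (-2.65 ± 0.25, adjusted p = 2.42e-05, and -2.68 ± 0.25, adjusted p = 5.57e-05). Its 3 probe sets did not move alike, since 2 were called lower with BRG1 and 1 with the vector, and the last had a log2 fold change of -0.64 in both lines. LRP5, the related co-receptor, was not called and its groups overlapped (-0.23 ± 0.37 with BRG1 and -0.32 ± 0.37 with the vector).

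TCF7L2 (chromosome 10, 112950247 to 113167678), the TCF factor that carries beta-catenin to DNA in many epithelial cells, had signals of 338, 338 and 239 on UV-treated against 1702, 1817 and 1209 on mock-treated SW13+BRG1 arrays, and of 237, 184 and 199 against 1143, 987 and 910.4 on SW13+vector arrays. The treatments did not overlap in either line (-2.37 ± 0.19, adjusted p = 7.22e-06, and -2.29 ± 0.19, adjusted p = 3e-05). Of its 7 probe sets 6 were called lower with BRG1 and 5 with the vector. The other TCF/LEF factors measured, TCF7L1 and LEF1, were not called after UV in either line, and the 95% interval of LEF1 was -2.61 to 2.05 in SW13+BRG1 and -1.54 to 3.12 in SW13+vector cells.

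GSK3B (chromosome 3, 119821321 to 120094447), the kinase that marks beta-catenin for degradation, had signals of 181, 154 and 205 on UV-treated against 546, 534 and 473 on mock-treated SW13+BRG1 arrays, and of 142, 115 and 124 against 372, 337 and 373 on SW13+vector arrays. The drop was close to the same in both lines (-1.53 ± 0.15, adjusted p = 3.79e-05, and -1.51 ± 0.15, adjusted p = 9.51e-05). APC (chromosome 5, 112707498 to 112846239), the tumour suppressor that holds the complex together with AXIN, had signals of 62.3, 89.0 and 66.8 on UV-treated against 261, 249 and 136 on mock-treated SW13+BRG1 arrays, and of 90.0, 122 and 43.4 against 260.3, 239 and 175 on SW13+vector arrays. Here too the treatments were apart in both lines (-1.53 ± 0.36, adjusted p = 0.00894, and -1.50 ± 0.36, adjusted p = 0.0143), although 1 of 5 probe sets was called lower with BRG1 and 2 with the vector, and the vector call was lost without the first or the second mock-treated SW13+vector array. Of the 4 tested probe sets of GSK3B 2 were called lower with BRG1 and 1 with the vector. AXIN1 (chromosome 16, 287440 to 352723), the scaffold of the same complex, had signals of 5.28, 20.0 and 5.60 on UV-treated against 28.3, 51.4 and 65.2 on mock-treated SW13+BRG1 arrays, and of 8.53, 52.9 and 22.4 against 25.2, 50.7 and 156 on SW13+vector arrays. Its single probe set was just past the threshold with BRG1 (-2.44 ± 0.79, adjusted p = 0.0455) and not with the vector (-1.43 ± 0.79, adjusted p = 0.272). The AXIN1 call was lost in 10 of 15 other settings and without any 1 of 7 arrays: each mock-treated SW13+BRG1 array, the first or the third UV-treated SW13+BRG1 array, the third UV-treated SW13+vector array or the second mock-treated SW13+vector array.

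ZNRF3, whose signals are given above, was lower after UV in both lines without overlap (-3.03 ± 0.40, adjusted p = 0.000258, in SW13+BRG1 cells and -2.08 ± 0.40, adjusted p = 0.0049, in SW13+vector cells), or at least 1.74-fold and at least 3.92-fold against the array median. FZD2 was lower after UV in both lines (-1.35 ± 0.21, adjusted p = 0.000719, and -1.14 ± 0.21, adjusted p = 0.00344), and the vector call was lost without the third mock-treated SW13+vector array, with 16 added to the signal, without the arrays numbered 3 and in the methods' t-test after adjustment. Although FZD2 fell with UV, its lowest SW13+BRG1 signal after UV was above its highest SW13+vector signal in mock-treated cells. FZD3 (chromosome 8, 28494212 to 28574258) had signals of 142, 155 and 147 on UV-treated against 319, 312 and 285 on mock-treated SW13+BRG1 arrays, and of 139.6, 155 and 195 against 313, 273 and 354 on SW13+vector arrays. It was past the fold of 2 with BRG1 (-1.04 ± 0.17, adjusted p = 0.00077) and just under it with the vector (-0.95 ± 0.17, adjusted p = 0.00257), and FZD5 was placed likewise (-1.24 ± 0.22, adjusted p = 0.00156, and -0.99 ± 0.22, adjusted p = 0.00934). With the fold threshold left out, both were called in both lines. Of the 4 tested probe sets of FZD3 2 were called lower with BRG1 and 1, a dimmer one, with the vector. Of the 2 tested probe sets of FZD2 1 was called lower with BRG1 and 2 with the vector. With BRG1 the FZD3 call was lost after quantile normalization, with a common median and with 16 added to the signal, and the FZD5 call with 16 added to the signal and in the methods' t-test after adjustment. FZD1, FZD4, FZD6 and FZD7 were not called after UV in either line.

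**Figure D3:**
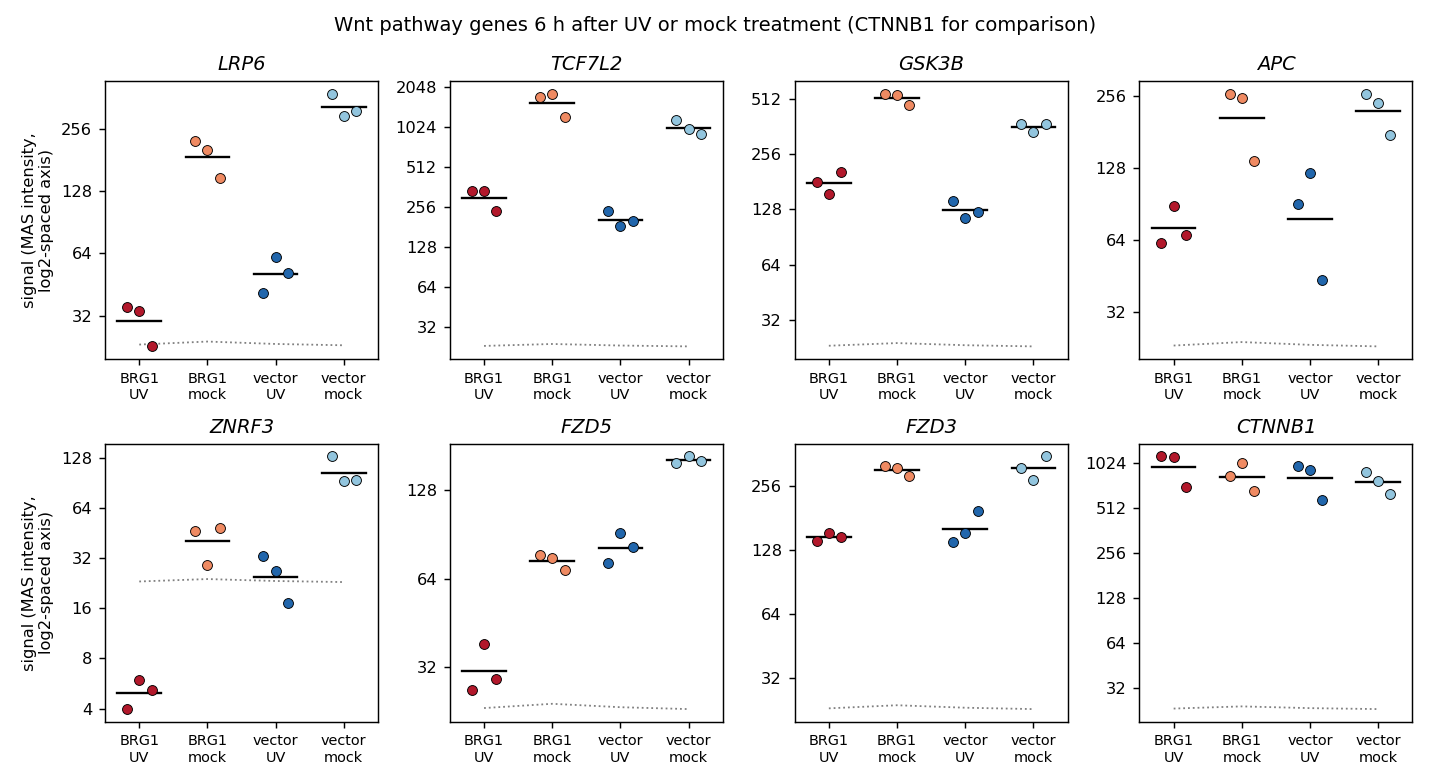
Signals of 8 Wnt pathway genes on each of the 12 arrays (vertical axis, MAS intensity on a logarithmic axis), by line and treatment (horizontal axis, 3 points per group). Bars are the means of the log2 signals and the dotted line is the mean of the array medians. In LRP6, TCF7L2, GSK3B, APC, ZNRF3, FZD5 and FZD3 the UV-treated arrays lie under the mock-treated arrays of the same line, and in CTNNB1 the groups overlap.

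Some genes were called after UV in 1 line and not in the other, and the difference of the UV effects was tested for each. No member passed that test (0 of 30 against 0.0943% of all genes), and 3 of 30 had an unadjusted p under 0.05, against 5.48% of all genes. These 3 were DKK1, TLE1 and LGR4. DKK1 had a log2 fold change of 0.03 ± 0.34 after UV in SW13+BRG1 cells, where it was near the array median, and was lower after UV in SW13+vector cells (-1.51 ± 0.34, adjusted p = 0.0111), and the difference was 1.53 ± 0.48 (unadjusted p = 0.00744, adjusted p = 0.585). Without the third mock-treated SW13+BRG1 array, whose signal of 51.7 was the highest of its group, the DKK1 difference was called. TLE1 was lower after UV in SW13+BRG1 cells (-1.45 ± 0.20, adjusted p = 0.000326) and not called in SW13+vector cells (-0.57 ± 0.20, adjusted p = 0.0756), with a difference of -0.87 ± 0.28 (unadjusted p = 0.00893, adjusted p = 0.618). Over the 5 probe sets of TLE1 the difference ran from -2.06 ± 0.98 to -0.23 ± 0.48, and 2 of the 5 were called lower after UV with BRG1. LGR4 was lower after UV in SW13+BRG1 cells (-1.70 ± 0.34, adjusted p = 0.00326) and not called in SW13+vector cells (-0.37 ± 0.34, adjusted p = 0.532), with a difference of -1.32 ± 0.48 (unadjusted p = 0.0157, adjusted p = 0.663). For LRP6, GSK3B, APC and TCF7L2 the difference lay within its error, at 0.04 ± 0.36, -0.02 ± 0.22, -0.02 ± 0.51 and -0.07 ± 0.26.

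**Figure D4:**
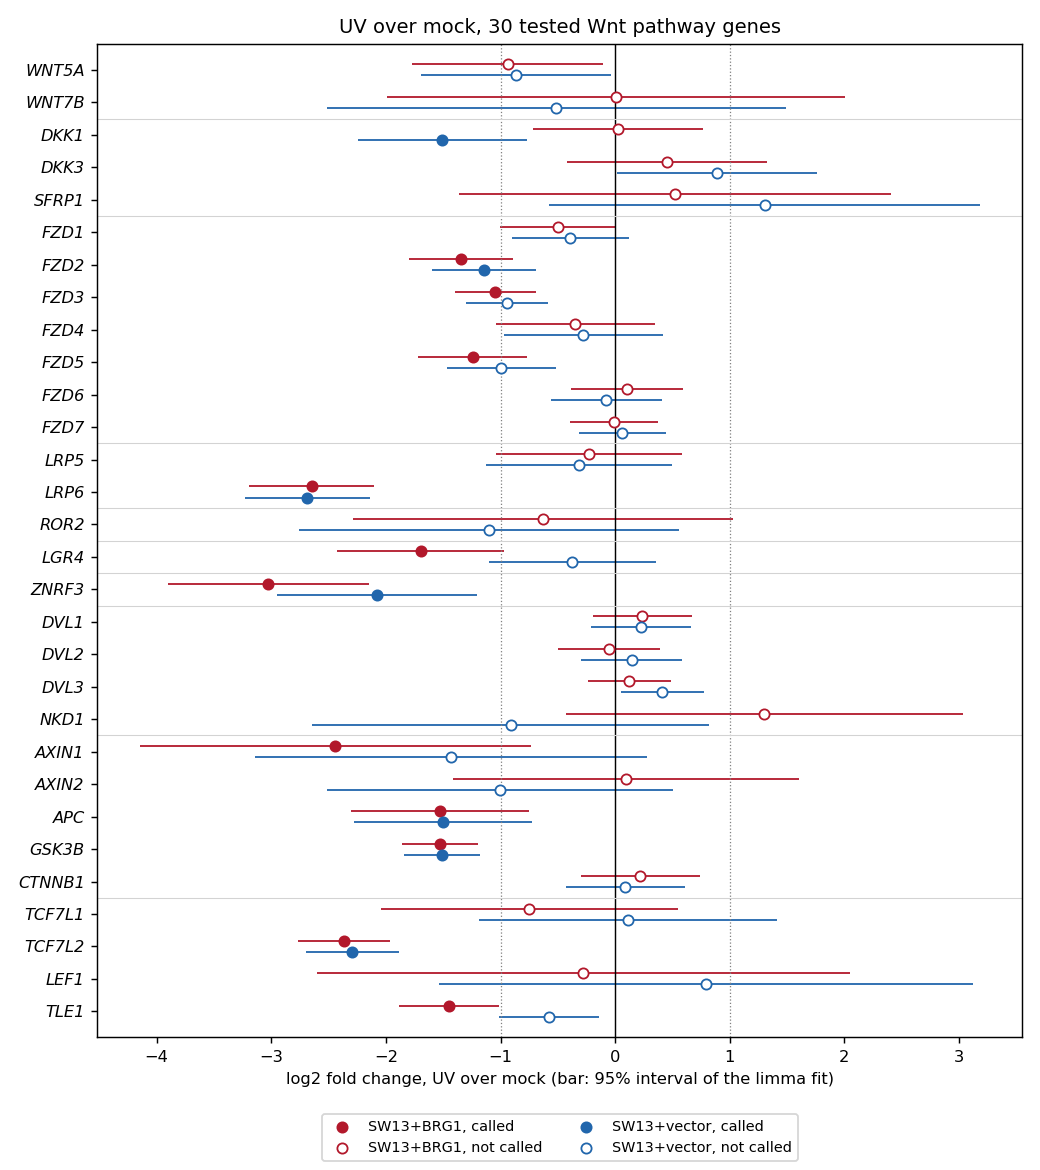
Log2 fold change of UV over mock (horizontal axis) for the 30 tested Wnt pathway genes (vertical axis, in the order of their roles), in SW13+BRG1 and in SW13+vector cells. Bars are 95% intervals of the limma fit, filled points were called, and the dotted lines mark a fold of 2. All filled points lie on the left, and LRP6, TCF7L2, GSK3B and APC have nearly the same value in both lines.

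The members that were lower after UV were mostly long genes. As background, UV lesions are known to stop RNA polymerase II, and a longer gene offers more sites for them. Of 12 members longer than 100 kb 7 were called lower with BRG1 and 5 with the vector, and their median log2 fold change was -1.49 and -1.01. Among all 2396 tested genes of that length 11.6% were called lower with BRG1 and 11.9% with the vector, with medians of -0.22 and -0.27. Of 9 members under 30 kb 2 were called lower in each line, FZD2 and FZD5 with BRG1 and DKK1 and FZD2 with the vector, and the medians were -0.05 and -0.28, against 0.19 and 0.18 for all 7195 tested genes of that length, of which 3.63% were called lower with BRG1 and 1.1% with the vector. Of 9 members between 30 and 100 kb 2 were called lower with BRG1 and 0 with the vector, with medians of 0.09 and -0.51, against 8.74% and 4.98% of 4177 genes, with medians of -0.08 and -0.10. Spearman's rho of length and log2 fold change over the 30 members, which share the same arrays and scaling, was -0.45 with BRG1 and -0.31 with the vector, and over 13768 genes it was -0.31 and -0.33. LRP5 at 151 kb is as long as LRP6 and was not called, and NKD1 at 101 kb and TCF7L1 at 177 kb were not called after UV either. NKD1, LEF1, TCF7L1 and ROR2 were dim, with signals of 3.10 to 47.7, 2.59 to 44.3, 3.91 to 62.8 and 3.48 to 55.6 over the 12 arrays. The lack of a call thus says little about them. The part of gene length in the UV results of the members was not tested.

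**Figure D5:**
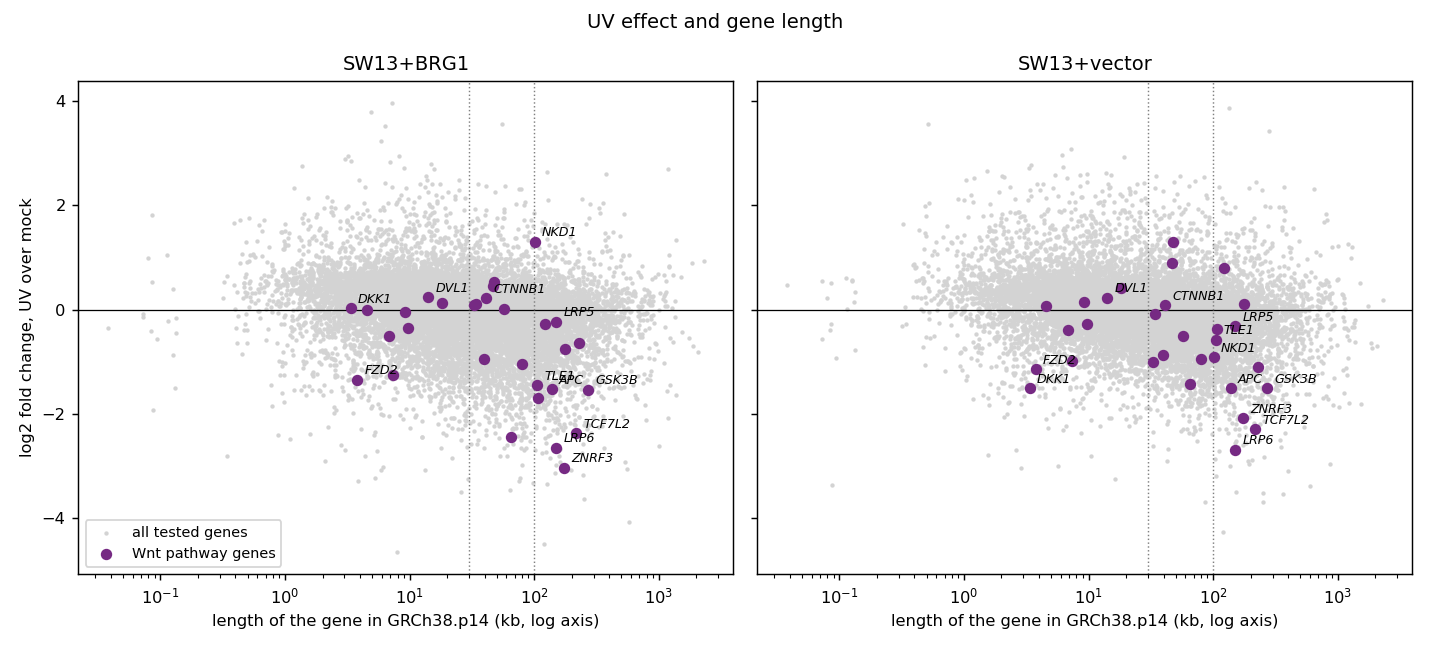
Log2 fold change of UV over mock (vertical axis) against the length of the gene in GRCh38.p14 (horizontal axis, kb, logarithmic) in SW13+BRG1 (left) and SW13+vector cells (right). Grey points are the tested genes with a known length, purple points are the 30 Wnt pathway genes, and the dotted lines mark 30 and 100 kb. LRP6, TCF7L2, GSK3B, APC and ZNRF3 lie at the lower right in both lines, while LRP5 lies near 0 at the same length as LRP6.

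The rest of the pathway was read on a list of 82 other Wnt genes, of which 58 were tested. After UV 2 of them were called higher and 6 lower in SW13+BRG1 cells, 13.8% of the 58, and in mock-treated cells 4 higher and 6 lower, 17.2%, both near the 16.7% and 14.6% of all genes. As on the member list, secreted inhibitors were among those with the largest differences. SFRP4, which binds Wnt as SFRP1 does, was lower in SW13+BRG1 cells (-5.28 ± 0.29, adjusted p = 2.46e-08, after UV and -4.85 ± 0.29, adjusted p = 5.65e-08, in mock-treated cells), the direction opposite to that of SFRP1. SOSTDC1, a secreted inhibitor of Wnt and BMP signals, was lower as well (-2.72 ± 0.95 and -5.83 ± 0.95, adjusted p = 0.0436 and 0.000441), and so was KREMEN2, the receptor through which DKK1 removes LRP6 from the surface (-1.60 ± 0.42 and -2.85 ± 0.42, adjusted p = 0.0104 and 0.000201). TNIK, a kinase that acts with TCF7L2, was higher (4.26 ± 0.51 and 5.41 ± 0.51, adjusted p = 3.05e-05 and 3.71e-06). CCDC88C, which binds Dishevelled, was called lower in SW13+BRG1 cells after UV (-2.62 ± 0.51, adjusted p = 0.00133). UV over mock gave 1 higher and 9 lower of 58 with BRG1 (17.2%) and 0 higher and 5 lower with the vector (8.62%), against 7.17% and 4.82% of all genes. With BRG1 the largest drops were in CCDC88C (-2.64 ± 0.51), FRAT2, an inhibitor of GSK3 (-2.25 ± 0.40), PRICKLE2, of planar cell polarity (-2.24 ± 0.63), and its relative PRICKLE1 (-1.66 ± 0.35). With the vector they were in CSNK1G1, a casein kinase (-1.50 ± 0.19), VANGL1, of planar cell polarity (-1.19 ± 0.32), CREBBP, a coactivator of beta-catenin (-1.16 ± 0.17), and FBXW11, the part of a ubiquitin ligase that recognises beta-catenin (-1.01 ± 0.15).

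Of 14 genes that are known targets of beta-catenin in other cells and are not members, 11 were tested. After UV 2 were called higher and 1 lower in SW13+BRG1 cells, and in mock-treated cells 3 higher and 1 lower, 27.3% and 36.4% of the 11, against 16.7% and 14.6% of all genes. CD44, an adhesion receptor, was higher (7.86 ± 0.65 and 8.16 ± 0.65, at least 143-fold and at least 114-fold), as was JUN, a subunit of AP-1 (1.56 ± 0.16 and 4.08 ± 0.16), whereas BIRC5, an inhibitor of apoptosis, was lower (-1.06 ± 0.30 and -1.03 ± 0.30). SNAI2, a repressor of epithelial genes, was called higher in mock-treated cells (5.34 ± 0.82). These targets and the members AXIN2, ZNRF3 and DKK1, which are known targets too, did not share a direction. UV over mock gave 1 lower of 11 in each line, JUN with BRG1 (-1.68 ± 0.16, adjusted p = 2.8e-05) and MYC with the vector (-1.33 ± 0.20, adjusted p = 0.00122), and JUN was the gene of these lists for which the difference of the UV effects passed the test (-2.52 ± 0.23, adjusted p = 0.000842).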

How the data were processed

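Total RNA of 12 cultures was hybridized to Affymetrix U133 Plus 2.0 arrays. The authors summarized each probe set with MAS (version not given in the sources used here), and the deposited values are signal intensities on a linear scale for 54675 probe sets, with a mean of 125 on every array once 2% of the values at either end are trimmed. Detection calls were not used here.

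Log2 signals were analysed without another normalization step. Probe sets at or above the median of their array on at least 3 of 12 arrays were kept (32622), and limma (version 3.58.1, R version 4.3.3) was fitted to all 12 arrays with a mean for each of the 4 groups and trended prior variances. The script was tested on simulated data. The probe set of a single gene with the highest mean log2 signal stood for the gene (41097 probe sets had 1 gene, 1801 several and 11777 none), and Benjamini-Hochberg adjustment of p-values ran over 13784 genes. Tests were two-sided. A call needed an adjusted p under 0.05 and a fold over 2, and for the difference of UV effects the adjusted p alone. The number of arrays limits the precision. Where a dim group is set against a bright one, a lower bound was computed after signals under the array median in the dim group were raised to that median, a choice made after seeing the data.

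The members and lists were chosen with earlier results of these data known, so no test was run on a list and counts stand beside those of all genes. All members are accounted for. Signals on every array are given for members called in any comparison and for the 5 tested members with the highest mean log2 signal, and of each other list up to 4 called genes with the largest change per comparison are named. Gene positions, lengths and promoter sequences are from RefSeq (GRCh38.p14), matched by symbol. Alternatives were quantile normalization, a common median, scaling to 14 hybridization control probe sets, a pseudocount of 16, raising signals to the 40th percentile, no filter and a stricter filter at the 75th percentile, a variance prior without trend, a replicate block, fitting the 2 compared groups alone, averaging all probe sets of each gene, adjustment over all probe sets, no fold threshold, the methods' t-test (Welch's test with a fold of 2) with unadjusted and with adjusted p, and dropping 1 array at a time. The fit that drops every array numbered 3 was added after seeing the data.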

Additional observations from a re-analysis of the deposited data

How the results depend on the processing

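Over 16 other settings and 12 fits that each left out 1 array, none of the 40 called values of members turned its direction, and 14 kept their call in every one of them. The methods' t-test with Benjamini-Hochberg adjustment called the fewest members: 3 higher and 4 lower between the lines after UV, 2 higher and 2 lower between the mock-treated lines, 5 lower after UV with BRG1 and 1 lower with the vector, and of the other Wnt genes and targets 4, 4, 1 and 1, against 11, 14, 11 and 6 in the fit of the report. Called members numbered 5 to 6 higher and 6 lower between the lines after UV when any 1 array was left out, 5 to 6 higher and 4 to 5 lower between the mock-treated lines, 0 higher and 10 to 11 lower after UV with BRG1, 0 to 1 higher and 6 to 8 lower with the vector, and 0 to 1 for the difference of UV effects. The 1 higher with the vector was DKK3 without the first mock-treated SW13+vector array, and the 1 for the difference was DKK1 without the third mock-treated SW13+BRG1 array. The other Wnt genes and targets called ranged over 7 to 13, 9 to 14, 8 to 12 and 4 to 7, in the same order, and the median log2 fold change of the members over -0.05 to 0.09, -0.07 to 0.15, -0.56 to -0.29, -0.78 to -0.49 and, for the difference, -0.20 to -0.01.

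Scaling to the hybridization controls moved the median log2 fold change of all genes to -0.18 between the lines after UV, -0.36 for UV with BRG1, -0.22 for UV with the vector and -0.13 for the difference of UV effects. The medians of the members became -0.15, -0.81, -0.79 and -0.21 there, and those of the members over 100 kb -1.88 with BRG1 and -1.26 with the vector, with 12 and 9 members called lower after UV and 10 other Wnt genes and targets with the vector. The median of the members for UV with BRG1 was -0.26 after quantile normalization, -0.23 with 16 added to the signal, -0.16 with the floor, -0.14 without the filter and with the stricter filter, and for UV with the vector -0.33 after averaging all probe sets of each gene. With the stricter filter 7 other Wnt genes and targets were called between the lines after UV and 6 between the mock-treated lines, with no fold threshold 18 between the lines after UV and 11 for UV with the vector, with the methods' t-test unadjusted 7 between the lines after UV, after quantile normalization 3 for UV with the vector, and with the mean over probe sets 0 for the difference. Averaging the probe sets of each gene also ended the calls of APC, AXIN1 and TLE1 after UV with BRG1, and the methods' t-test unadjusted those of APC after UV with the vector and of SFRP1 between the mock-treated lines. The cause of these shifts was not tested.

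Arrays with the same number correlated in their deviations from the group means with r of 0.02 to 0.29, and 11 of 18 pairs were over 0.1. Arrays with different numbers correlated with r of -0.22 to 0.14, and 4 of 36 pairs were over 0.1. The arrays numbered 3 shared some variation, with r of 0.18 to 0.29 among them and a negative r with every array of another number. Arrays numbered 1 or 2 correlated no better with their own number (r of 0.02 to 0.14) than with the other of these numbers (r of 0.04 to 0.14). The fit of the report took the number as a label only and did not model that variation. The fit with the replicate block kept every member call of the report, added TCF7L1 as lower in mock-treated SW13+BRG1 cells (6 members called lower) and called 81 genes in place of 13 for the difference of UV effects, none of them a member. Of the arrays 4 of 6 correlated best with their own number between the mock-treated lines, 5 of 6 between the lines after UV, 3 of 6 for UV with BRG1 and 4 of 6 for UV with the vector. The arrays numbered 3 were among them each time. Without the arrays numbered 3, a fit chosen after seeing the data, 151 genes passed the test of the difference, DKK1 (1 member higher) and 2 other Wnt genes and targets among them, and the medians of the members were -0.73 for UV with BRG1 and -0.25 for the difference. Signals under the array median on at least 10 of 12 arrays, as in the 6 untested members, limit what can be said of WNT, ROR and LGR5 levels.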
